A study of Mus musculus with 8 samples.

Results

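Pan-endothelial identity genes, the genes by which endothelial cells of most vessels are recognised, were examined in mouse retina at postnatal day 8 (P8). Of 35 listed genes, 34 were measured by 62 probe sets, short oligonucleotide groups that each report 1 transcript region, out of 45037 probe sets on the array. A probe set was taken where the platform annotation gave it exactly 1 gene symbol and that symbol was on the list. Ly6c1, a surface protein of mouse endothelium, was reached by only 1 probe set, which also names Ly6c2, and was therefore left out. Of the 34 genes, 18 had 1 probe set and 16 had several, up to 5 for Cd93.

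The 4 Z/Edn2 samples were retinas of Z/Edn2; Six3-Cre pups, and the 4 Control samples were retinas of Six3-Cre pups. Z/Edn2 is a transgene that carries Edn2, the gene of the secreted peptide endothelin 2, and that becomes active where Cre has acted. Six3-Cre acts in the developing neural retina, and every pup of both groups carried it. Pups were of mixed background, mainly C57BL/6 and 129, they were sorted by LacZ staining of tail clips, and the retinas of 2 to 3 pups were pooled for each sample. Labels call the samples biological replicates, so p-values measure the spread between pools.

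Retinal vessels grow over the inner surface of the retina from the optic nerve head during the first postnatal days, and at P8 sprouting into the deeper layers is under way. Endothelial identity is held by transcription factors of the ETS family (Erg, Fli1, Ets1) and the SOXF group (Sox7, Sox18), which bind enhancers and promoters of genes for junctions, receptors and anticoagulant proteins. Because these transcripts are made mainly by endothelial cells, in whole retina they are read as a gauge of the endothelial compartment. In such bulk samples, fewer endothelial cells and less RNA per endothelial cell cannot be told apart.

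Promoters of the list were compared for the ETS core, GGAA on either strand, since Fli1 is an ETS factor and had the lowest log2 fold change of all 62 probe sets. RefSeq start sites of the build GRCm38.p6 were matched for 18 of the 35 genes, with 25 windows of the 250 bases before the start. The ETS core was present in 24 of 25 windows (96%) and in 93.4% of 32851 windows of the same length over all genes. A composite of a FOX and an ETS motif, AACAGGAA on either strand, which contains the ETS core, was present in 2 windows (8%), of Egfl7 and Emcn, and in 2.25% of all windows. The SOX core ACAAT was present in 7 windows (28%) and in 27.7% of all windows. A pair of ETS cores 1 base apart, GGAANGGAA, was present in 1 window (4%), of Adgrf5, and in 2.64% of all windows. The promoters of 4 genes are shown with the ETS core in capitals (TTCC on the opposite strand). Adgrf5, Clec14a and Icam1 are the genes with a window among those described below as lower in Z/Edn2 at an unadjusted p under 0.05, and Emcn is a defining endothelial marker that was not. They lie at chr17:43360181-43360430 on the plus strand (Adgrf5, the first of its 2 windows), chr12:58269259-58269508 on the minus strand (Clec14a), chr9:21015690-21015939 on the plus strand (Icam1) and chr3:137340828-137341077 on the plus strand (Emcn).
Adgrf5 promoter: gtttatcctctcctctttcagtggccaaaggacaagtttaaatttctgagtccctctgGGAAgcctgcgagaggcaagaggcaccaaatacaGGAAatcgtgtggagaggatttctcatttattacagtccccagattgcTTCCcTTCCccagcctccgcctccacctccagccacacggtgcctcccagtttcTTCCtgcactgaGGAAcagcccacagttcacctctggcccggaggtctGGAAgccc
Clec14a promoter: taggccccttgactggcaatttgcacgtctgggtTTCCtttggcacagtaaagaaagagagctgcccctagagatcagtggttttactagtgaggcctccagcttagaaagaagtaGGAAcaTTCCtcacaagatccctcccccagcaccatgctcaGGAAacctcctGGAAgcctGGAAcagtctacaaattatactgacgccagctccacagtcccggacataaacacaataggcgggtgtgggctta
Icam1 promoter: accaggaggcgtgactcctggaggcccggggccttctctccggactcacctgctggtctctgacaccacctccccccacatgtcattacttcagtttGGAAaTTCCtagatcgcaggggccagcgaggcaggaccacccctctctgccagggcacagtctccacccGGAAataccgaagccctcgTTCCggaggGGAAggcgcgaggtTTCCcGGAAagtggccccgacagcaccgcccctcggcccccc
Emcn promoter: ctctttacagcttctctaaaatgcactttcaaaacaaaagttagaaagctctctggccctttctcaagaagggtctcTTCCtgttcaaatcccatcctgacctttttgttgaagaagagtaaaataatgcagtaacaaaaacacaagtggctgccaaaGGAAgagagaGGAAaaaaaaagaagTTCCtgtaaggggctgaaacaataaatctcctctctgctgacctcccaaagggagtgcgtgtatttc
The core occurred 7 times in the Adgrf5 window, 6 times in that of Clec14a, 7 times in that of Icam1 and 4 times in that of Emcn. Since 93.4% of all windows held an ETS core, its presence could not set the list apart from promoters at large. The median number of cores in a window was 4 for the list and 3 over all windows, a difference that was not tested.

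No endothelial identity gene passed the test in Z/Edn2 retinas. By limma, with Benjamini-Hochberg adjustment over all 45037 probe sets, 0 of the 62 probe sets passed an adjusted p of 0.05 in either direction, where 7 probe sets of the whole table passed as lower (0.0155%) and 27 as higher (0.06%). The smallest adjusted p among the 62 was 0.359. At an unadjusted p under 0.05, 6 of the 62 (9.68%) were lower in Z/Edn2 and 0 were higher, against 1.17% and 2.8% of all probe sets. These 6 probe sets belong to 5 genes, Fli1, Adgrf5, Sox18, Icam1 and Clec14a, which has 2 of them. The groups did not overlap for 3 of the 62 probe sets, all 3 lower in Z/Edn2, against 0.802% of all probe sets lower and 2.34% higher. Counts of this kind treat members as separate although they share the same 8 arrays.

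The sign of the differences leaned downwards and their size was small on these mostly dim probe sets. Log2 fold changes, given here as Z/Edn2 minus Control, were negative for 43 of 62 probe sets and positive for 19, where 42.6% of all probe sets were negative. Their median was −0.068, against 0.021 over all probe sets. With each gene represented by its probe set of highest mean, 25 of 34 genes were negative and 9 positive, with a median of −0.11, against 0.014 over 18193 genes, of which 45.2% were negative. The 95% interval lay within 1.5-fold in both directions for 47 of the 62 probe sets and within 2-fold for 58. Of the 62 probe sets, 16 had a mean signal of at least the median over all probe sets. These 16 had a median log2 fold change of −0.15, and it was −0.20 for 10 genes by their probe set of highest mean. How far dim signal limits the size of the differences was not tested. With the replicate number as a block 1 probe set passed, that of Fli1, in place of 0 (16 of all probe sets lower, 0.0355%).

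**Figure D1:**
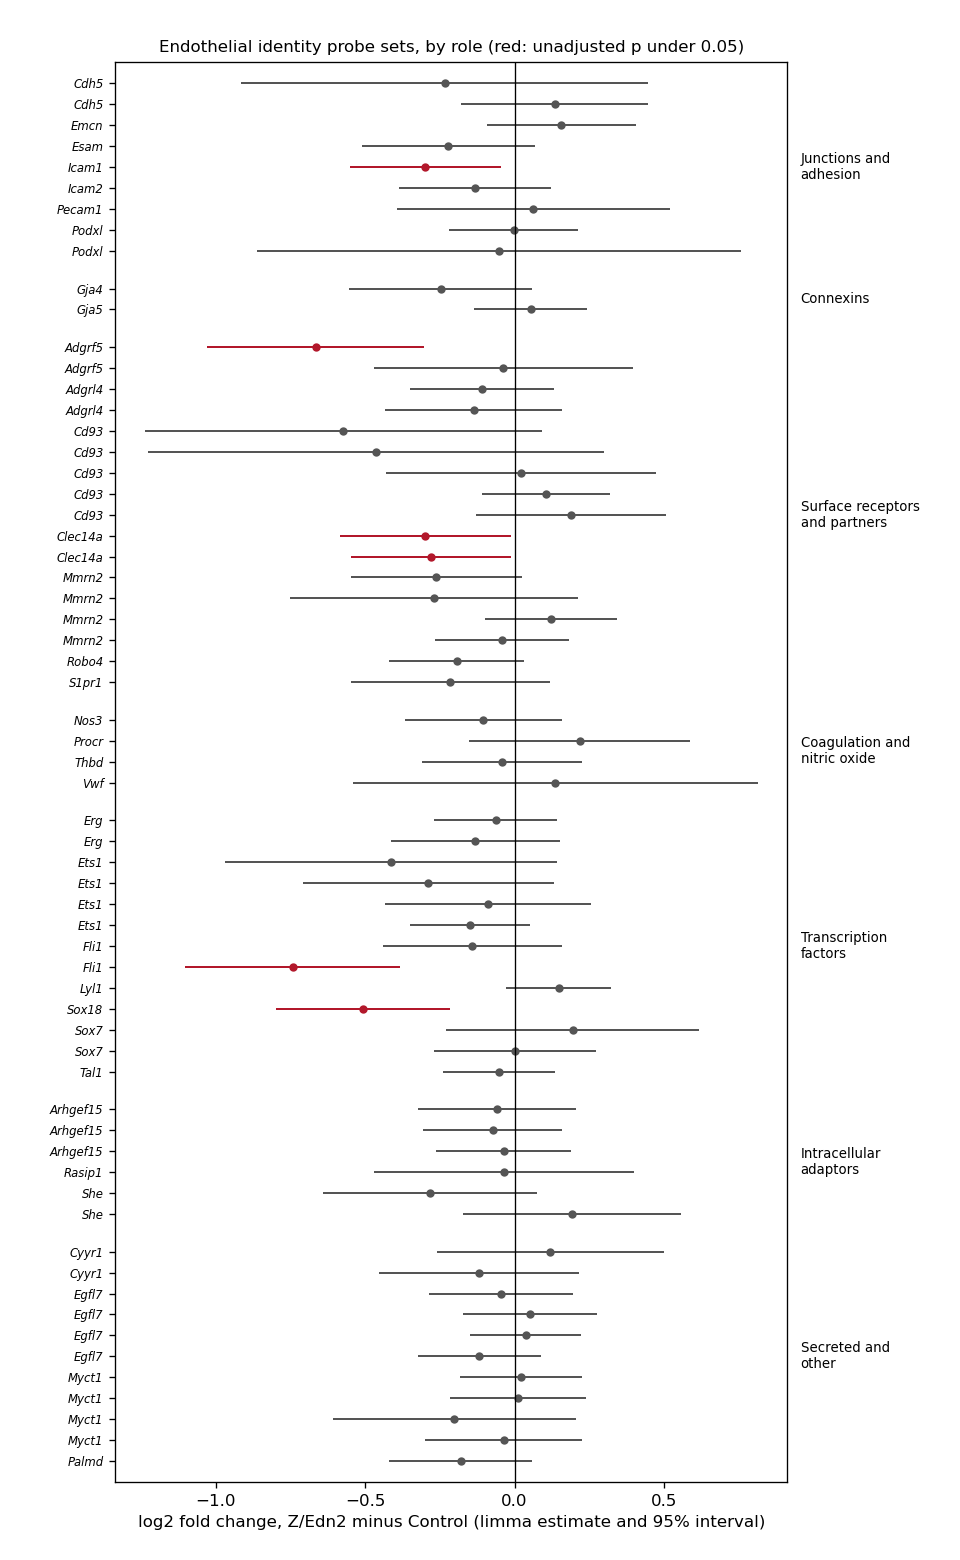
Log2 fold change (Z/Edn2 minus Control, x axis) of each of the 62 probe sets, grouped by role, with limma's 95% interval; red marks the 6 probe sets with an unadjusted p under 0.05. All 6 lie left of 0, and the intervals of the other 56 include 0.

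Among the junction and adhesion genes, the defining markers of endothelium did not pass the test and had overlapping groups. Pecam1, an adhesion molecule of endothelial junctions, had log2 signals of 5.81, 4.75, 5.60 and 5.33 in Z/Edn2 1 to 4, against 5.38, 5.09, 5.38 and 5.39 in Control 1 to 4. The Control values lay inside the range of the Z/Edn2 values. Its log2 fold change was 0.06 ± 0.202 (SE; 95% interval −0.39 to 0.52; limma adjusted p = 1.00). Cdh5, the vascular endothelial cadherin, had 5.77, 4.52, 6.12 and 5.56 in Z/Edn2 retinas, against 5.31, 5.87, 5.90 and 5.82 in Control retinas, by its probe set of highest mean. The lowest and the highest of these 8 values were both Z/Edn2 samples, Z/Edn2 2 and Z/Edn2 3. Cdh5 stood at −0.23 ± 0.302 (interval −0.91 to 0.44), and its other probe set was at 0.13. Without Z/Edn2 2 the log2 fold change of Cdh5 was 0.09, and without the pair of replicate 2 it was 0.14. It was −0.44 without Z/Edn2 3. Without Control 1, Z/Edn2 1 and Z/Edn2 3 it was −0.83 (unadjusted p = 0.0146, adjusted p = 0.922 by limma). The value of Cdh5 thus rested on which samples were kept.

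Emcn, the sialomucin endomucin of capillary and venous endothelium, had 4.96, 5.13, 5.19 and 4.77 in Z/Edn2 retinas, against 4.77, 4.90, 4.76 and 5.0 in Control retinas. Its groups overlapped and the log2 fold change was 0.16 ± 0.110 (interval −0.09 to 0.40). Esam, a junctional adhesion molecule, was at −0.22 ± 0.127, and Icam2, an adhesion receptor present on resting endothelium, at −0.13 ± 0.112. Podxl, an apical sialomucin that neurons also make, was at −0.003 by its brighter probe set and at −0.05 by the other.

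Icam1, the leukocyte adhesion molecule that inflammation induces on endothelium, was the one junction or adhesion gene with an unadjusted p under 0.05. Its log2 signals were 3.86, 3.49, 3.71 and 3.83 in Z/Edn2 retinas, against 4.10, 4.10, 4.07 and 3.80 in Control retinas. Control 4 lay among the Z/Edn2 samples, and the other 3 Control samples lay above all of them. Its log2 fold change was −0.30 ± 0.111 (unadjusted p = 0.0236 and adjusted p = 1.00 by limma).

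Both gap junction proteins of arterial endothelium were without a call. Gja4 had 4.75, 4.72, 5.14 and 5.05 in Z/Edn2 retinas, against 4.93, 5.43, 5.19 and 5.11 in Control retinas. Its groups overlapped, with a log2 fold change of −0.25 ± 0.135. Gja5 was at 0.05 ± 0.0826, with an interval of −0.13 to 0.24. The separate list of 7 arterial genes had 6 of its 15 probe sets negative and 9 positive, with a median of 0.12. Of these 15, 2 were lower at an unadjusted p under 0.05, both of Sox17 (−1.22 and −0.40), and 1 was higher. The groups did not overlap for 2 lower probe sets, those of Sox17, and for 2 higher ones. Of all probe sets, 1.17% were lower and 2.8% higher at that p, and 0.802% were lower and 2.34% higher without overlap.

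Surface receptors and their partners held 3 of the 6 probe sets with an unadjusted p under 0.05. All 7 genes of this group had a negative log2 fold change by their probe set of highest mean, from −0.66 to −0.11, with a median of −0.26. Adgrf5, an adhesion G protein-coupled receptor of endothelium and lung epithelium, had 5.53, 5.16, 5.84 and 5.57 in Z/Edn2 retinas, against 5.89, 6.43, 6.31 and 6.14 in Control retinas. The groups did not overlap, with Z/Edn2 3 just below Control 1. Its log2 fold change was −0.66 ± 0.161 (unadjusted p = 0.00222, adjusted p = 0.58 by limma), and its other, dimmer probe set was at −0.04 ± 0.193. As the mean of both probe sets the log2 fold change was −0.35.

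Clec14a, a C-type lectin of endothelium that binds Mmrn2, had 2 probe sets of nearly the same log2 fold change, −0.30 ± 0.126 and −0.28 ± 0.118. The second was very dim, with log2 signals from 2.25 (Z/Edn2 2) to 2.91 (Control 2). By the brighter one the values were 5.0, 4.90, 5.47 and 5.07 in Z/Edn2 retinas, against 5.32, 5.32, 5.51 and 5.49 in Control retinas. Only Z/Edn2 3 lay within the Control range (unadjusted p = 0.0404, adjusted p = 1.00 by limma). Cd93, another lectin-like receptor for Mmrn2, had 7.57, 6.51, 7.97 and 7.88 in Z/Edn2 retinas, against 7.65, 8.22, 8.22 and 8.14 in Control retinas. Z/Edn2 2 lay far below the rest, and the interval of Cd93 was wide, −1.23 to 0.09 around −0.57. Without Z/Edn2 2 this value was −0.25, and without the pair of replicate 2 it was −0.20. Its second probe set was at −0.46 ± 0.339, while the 3 dim ones were at 0.02, 0.11 and 0.19.

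Mmrn2, an extracellular matrix glycoprotein of vessels, was at −0.26 ± 0.127 and −0.27 ± 0.213 by its 2 brighter probe sets and at 0.12 and −0.04 by the others. The receptors Robo4, which steadies vessels, and S1pr1, a sphingosine phosphate receptor that astrocytes also carry, were at −0.19 ± 0.0994 and −0.22 ± 0.147, and S1pr1 was at −0.095 without Z/Edn2 3. Adgrl4, a further adhesion G protein-coupled receptor, was at −0.11 and −0.14. Among these receptors the brighter probe sets of a gene were thus the more negative ones for Adgrf5, Cd93 and Mmrn2. Of the 16 genes with several probe sets, 7 had signs in both directions, 8 had only negative and 1 had only positive log2 fold changes.

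Genes of coagulation and of nitric oxide synthesis were split, with 2 negative and 2 positive. Vwf, the von Willebrand factor of endothelium and platelets, had 5.76, 4.08, 5.18 and 4.87 in Z/Edn2 retinas, against 5.01, 5.04, 4.54 and 4.75 in Control retinas. The SD was 0.701 among Z/Edn2 samples and 0.235 among Control samples, and the log2 fold change of 0.14 had an interval of −0.54 to 0.81. Procr, the endothelial protein C receptor, was at 0.22 ± 0.164, but at 0.063 without Z/Edn2 3. Thbd, the anticoagulant receptor thrombomodulin, was at −0.04 ± 0.118, and Nos3, endothelial nitric oxide synthase, at −0.10 ± 0.116. Beside Vwf stand the platelet markers, with 4 of 5 measured. All 4 were positive, 1 at an unadjusted p under 0.05, against 2.8% of all probe sets higher. Their list means were 0.049 to 0.47 in Z/Edn2 samples, against −0.032 to 0.067 in Control samples, around the Control mean. Their part in the value of Vwf was not tested.

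Transcription factors of endothelial identity held the lowest log2 fold change of the 62. Fli1, an ETS factor of endothelial and blood cells, had 3.37, 3.92, 3.77 and 3.80 in Z/Edn2 retinas, against 4.13, 4.35, 4.66 and 4.70 in Control retinas, by its dimmer probe set. All 4 Z/Edn2 samples lay below all 4 Control samples, and the log2 fold change was −0.74 ± 0.159 (unadjusted p = 0.001, adjusted p = 0.359 by limma). With the replicate block the adjusted p was 0.0439, the only call among the 62 probe sets in any setting tried. The brighter Fli1 probe set, with 4.46, 4.72, 4.79 and 4.46 in Z/Edn2 retinas, against 4.47, 5.01, 4.68 and 4.84 in Control retinas, did not show the same separation, at −0.14 ± 0.132. Because microglia also express Fli1, the microglia and macrophage markers stand beside it. All 10 were measured, and 5 were negative and 5 positive. Of these, 2 (P2ry12 at −0.59 and Aif1 at −0.20) had an unadjusted p under 0.05, against 1.43% of all genes lower. Their list mean ran from −0.24 to 0.12 in Z/Edn2 samples, against −0.12 to 0.11 in Control samples. Their part in the value of Fli1 was not tested.

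Sox18, a SOXF factor of developing vessels, had 6.24, 5.63, 6.17 and 5.96 in Z/Edn2 retinas, against 6.47, 6.54, 6.52 and 6.50 in Control retinas. The SD was 0.274 among Z/Edn2 samples and 0.0275 among Control samples, and every Control sample lay above every Z/Edn2 sample, with a log2 fold change of −0.51 ± 0.128 (unadjusted p = 0.00301, adjusted p = 0.66 by limma). Sox18 has a single probe set. Sox7, of the same group, was at 0.20 and 0.003 by its 2 probe sets. Erg, the ETS factor most used to mark endothelial nuclei, had 5.67, 5.61, 5.51 and 5.36 in Z/Edn2 retinas, against 5.58, 5.69, 5.61 and 5.53 in Control retinas. These groups overlapped, and Erg was at −0.06 ± 0.0899 and −0.13 ± 0.125 by its probe sets.

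Ets1, the neighbour of Fli1 on chromosome 9 with 0 protein-coding genes between them, was at −0.41, −0.29, −0.09 and −0.15 by its 4 probe sets. None of these passed, and by the brightest one Z/Edn2 2, at 5.32, was the lowest sample, and the next was Z/Edn2 4 at 6.23. Without Z/Edn2 2 this probe set was at −0.14, and without the pair of replicate 2 at −0.065. Tal1 and Lyl1, basic helix-loop-helix factors shared by endothelial and blood lineages, were at −0.05 ± 0.0821 and 0.15 ± 0.0769. Other neighbours on the list were Thbd and Cd93, with 0 protein-coding genes between them, and Robo4 with Esam and Icam2 with Pecam1, with 2 between each.

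The intracellular adaptors and the remaining genes had no probe set with an unadjusted p under 0.05, and their log2 fold changes lay between −0.28 and 0.19. Rasip1, a Ras-interacting protein needed for vessel lumens, was at −0.04 ± 0.193, and Arhgef15, a guanine nucleotide exchange factor of endothelium, lay between −0.07 and −0.04 over 3 probe sets. She, an SH2 domain adaptor, was at −0.28 and 0.19, and its first probe set was at −0.45 without Z/Edn2 3 (unadjusted p = 0.000889, adjusted p = 0.396 by limma). Egfl7, a protein secreted by endothelium, lay between −0.12 and 0.05 over 4 probe sets, with intervals no wider than −0.32 to 0.27. Myct1, a membrane protein of endothelium, lay between −0.20 and 0.02, Cyyr1, a membrane protein, was at 0.12 and −0.12, and Palmd, of the paralemmin family, was at −0.18 ± 0.105.

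**Figure D2:**
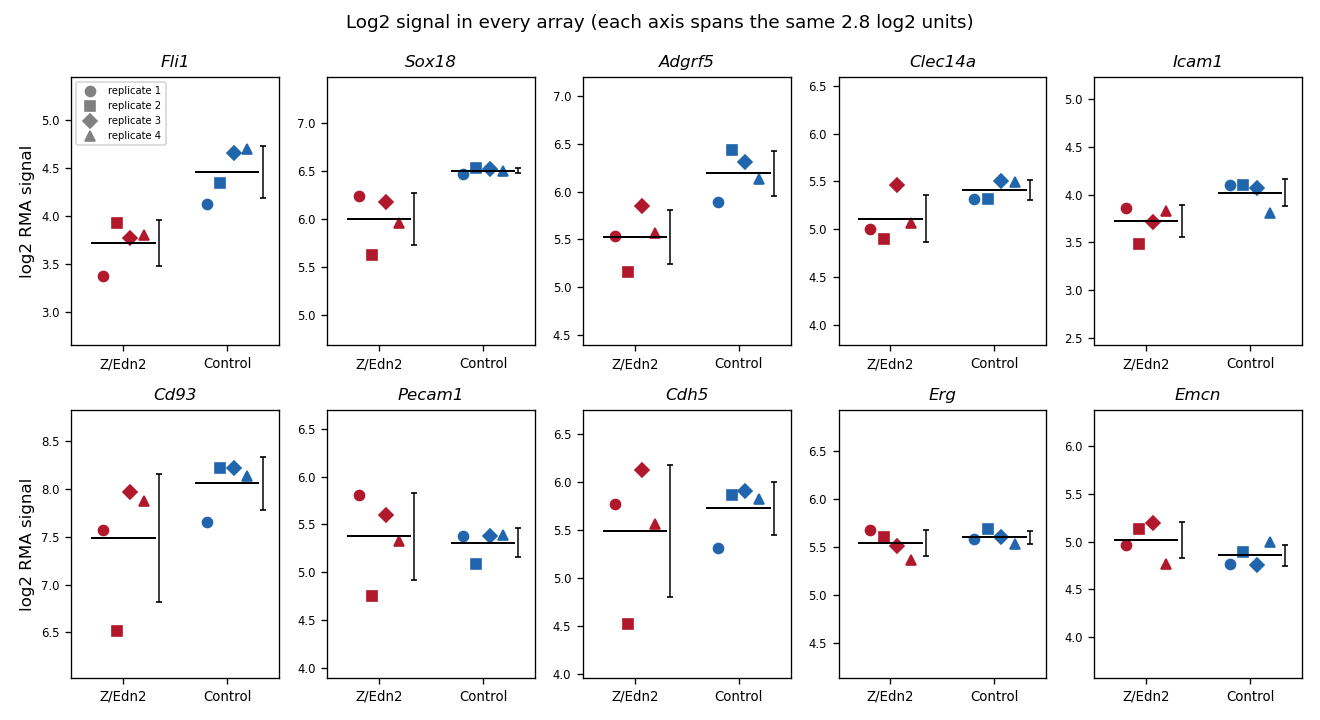
Log2 RMA signal (y axis) of 10 genes in the 4 Z/Edn2 samples (red) and the 4 Control samples (blue), with a symbol for each replicate number, the mean as a bar and the SD as whiskers. Fli1 is shown by its dimmer probe set and the other genes by their probe set of highest mean. Fli1, Sox18 and Adgrf5 do not overlap between the groups. Z/Edn2 2 is the lowest sample for Sox18, Adgrf5, Clec14a, Icam1, Cd93, Pecam1 and Cdh5.

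Part of the spread followed single samples. Z/Edn2 2 had the lowest of the 8 values for 27 of the 62 probe sets (43.5%), where it was lowest for 12.6% of all probe sets. Without Z/Edn2 2, Clec14a was at −0.23 and −0.22 (unadjusted p = 0.112 and 0.107 by limma). Icam1 was then at −0.22 (unadjusted p = 0.0657 by limma). Sox18 at −0.38, Adgrf5 at −0.54 and the dimmer Fli1 probe set at −0.81 kept an unadjusted p under 0.05. Control 2 had the highest value for 22 of the 62 (35.5%), against 10.1% of all probe sets. Z/Edn2 3 had the highest value for 18 (29%), close to its share of 29% over all probe sets. The median deviation of the 62 probe sets from the Control mean was −0.078 in Z/Edn2 1, −0.18 in Z/Edn2 2, 0.08 in Z/Edn2 3 and −0.13 in Z/Edn2 4. In Control samples 1 to 4 it was −0.055, 0.084, 0.0034 and −0.01. Z/Edn2 3 was thus the only Z/Edn2 sample whose median lay above the Control mean, and its median over all probe sets was raised by the same amount, 0.078.

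The SD among Z/Edn2 samples exceeded that among Control samples for 50 of the 62 probe sets (80.6%), and for 67.5% of all probe sets. Its median was 0.209 in Z/Edn2 and 0.152 in Control over the 62 probe sets, against 0.177 and 0.132 over all. The median SD of the members was thus above that of all probe sets in both groups. This comparison was not matched for signal and was not tested.

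**Figure D3:**
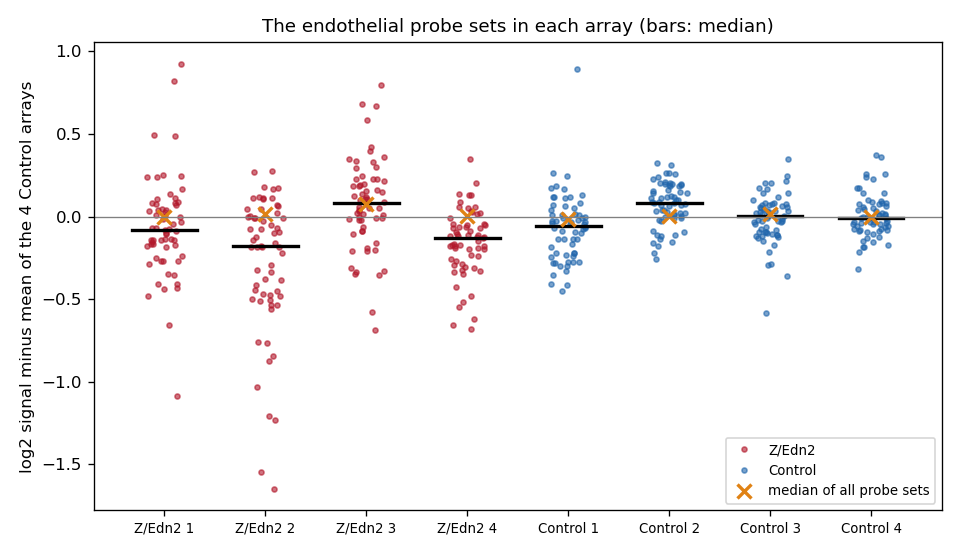
Log2 signal minus the mean of the 4 Control samples (y axis) for each of the 62 probe sets in each sample (x axis), with the median as a bar and the median of all 45037 probe sets as a cross. The bar lies below the cross in Z/Edn2 1, 2 and 4, and at the cross in Z/Edn2 3.

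Sample medians over all probe sets lay between 6.14 and 6.27, the highest in Z/Edn2 3. Z/Edn2 3 also had a signal of 6.57 for Xist, transcribed from the inactive X, against 10.2 to 12.4 in the other 7 samples. Z/Edn2 1 and Control 1 had a lower actin signal at the 3′ end relative to the 5′ end, a log2 difference of 0.56 in Z/Edn2 1 and 0.65 in Control 1 against 1.06 to 1.42 elsewhere. Without these 3 samples 20 of the 62 probe sets were lower at an unadjusted p under 0.05 and 0 were higher, against 2.3% of all probe sets lower, and the median log2 fold change was −0.19, with 0 adjusted calls. Without Z/Edn2 3 alone 14 were lower, against 1.61% of all probe sets. These 14 included Robo4, Esam, Mmrn2, Cd93, Gja4, Icam2, She and an Erg probe set beside the 6 named above. With array medians subtracted 10 were lower (1.77% of all), with array weights 13 (1.63% of all), and among the 16 brighter probe sets described below 1 (1.44% of all). A single probe set was higher at an unadjusted p under 0.05 with the replicate block (5.3% of all), without Control 2 (2.06%), without Z/Edn2 4 (3.73%) and without the pair of replicate 4 (2.28%). Without Control 3, 3 were lower (0.711% of all), and without the pairs of replicate 2 and replicate 3, 3 (0.619% of all) and 11 (1.05% of all) were. The count at an unadjusted p thus rested on which samples were kept, while the negative sign of the median did not change in any of these settings.

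Other endothelial lists are set beside these genes for scale. They were chosen with earlier results of these data known, and the genes named from them are those with the smallest p. Of 26 probe sets of 12 signalling receptors, 2 passed the adjusted threshold as lower, Tek and Aplnr, and 7 were lower at an unadjusted p under 0.05. Tek, the angiopoietin receptor, had a log2 fold change of −1.54. The receptor of apelin, Aplnr, was at −2.05 by its brighter probe set and at −0.39 by the other, which did not pass (adjusted p = 0.755 by limma). Of 30 probe sets of 16 barrier genes, 3 passed as lower, those of the transporters Slco1c1, Slc38a5 and Mfsd2a, and 10 were lower and 4 higher at an unadjusted p under 0.05. Of 18 probe sets of 11 tip cell genes, 17 were positive and 1 negative, and 1 passed as higher, that of the peptide apelin (Apln), which rose by 0.63. Of all probe sets, 1.17% were lower and 2.8% higher at an unadjusted p under 0.05, and 0.0155% and 0.06% passed the adjusted threshold. With the replicate block 4 probe sets of signalling receptors passed as lower, Ptprb among them (adjusted p = 0.0367 by limma), and 3 of barrier genes. Ptprb was at −0.78 by that probe set and at −1.07 and 0.22 by others. In the block fit 3 probe sets of tip cell genes passed as higher, Esm1 among them (adjusted p = 0.0227 by limma). Of all 45037 probe sets, 16 passed as lower (0.0355%) and 78 as higher with the block. Over probe sets, the median log2 fold change was −0.098 for signalling receptors, −0.031 for barrier genes and 0.24 for tip cell genes, beside −0.068 for the identity genes. With the probe set of highest mean for each gene, these medians were −0.23, −0.22 and 0.39, beside −0.11. The order of barrier and identity genes thus depended on the measure.

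A further list of 22 genes expressed broadly in endothelium, none of them among the 35, had 14 negative and 20 positive probe sets and a median of 0.014. None of its 34 probe sets passed, and 3 were lower and 2 higher at an unadjusted p under 0.05, against 1.17% and 2.8% of all probe sets. Lmo2, a partner of Tal1, was at −0.52, Sox17, the remaining SOXF factor, at −0.40 by its brighter probe set and at −1.22 by the other (unadjusted p = 0.000198, adjusted p = 0.139 by limma), and Mcam, an adhesion molecule that pericytes also carry, at 0.57. The lowest log2 fold change among the identity probe sets was −0.74, against −1.22 (Sox17, which is also on the barrier and arterial lists) among the other broadly expressed genes, −2.50 among the barrier probe sets and −2.05 among the signalling receptors. The differences between lists were not tested.

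**Figure D4:**
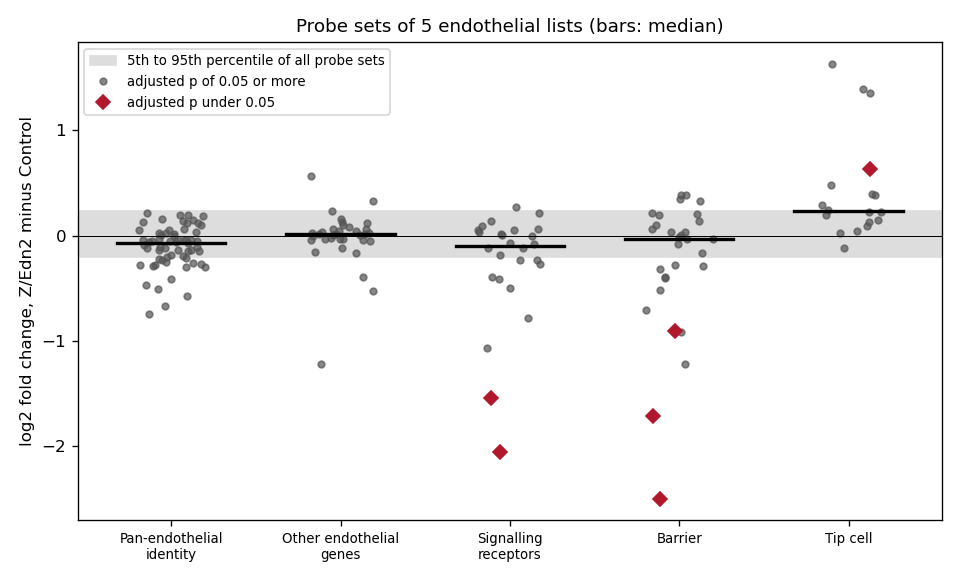
Log2 fold change (Z/Edn2 minus Control, y axis) of each probe set in 5 endothelial lists, with the list median as a bar and red diamonds for an adjusted p under 0.05. The grey band runs from the 5th to the 95th percentile of all probe sets, from −0.20 to 0.23; the identity probe sets lie between −0.74 and 0.22 with no diamond, while the signalling receptors reach −2.05 and the barrier genes −2.50.

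Markers of the other cells of the vessel wall and of blood were read in the same arrays. Mural cell markers, for pericytes and smooth muscle, had 8 negative and 14 positive probe sets of 10 genes, with 0 adjusted calls. At an unadjusted p under 0.05, 1 was lower and 2 were higher, against 1.17% and 2.8% of all probe sets. The groups did not overlap for 2, both higher, against 2.34% of all probe sets higher. Their list means were −0.17 to 0.31 in Z/Edn2 samples, against −0.18 to 0.15 in Control samples. Z/Edn2 2 was the lowest Z/Edn2 sample for mural markers as for the identity genes, whose list mean by highest-mean probe sets ran from −0.32 to 0.055 in Z/Edn2 samples, against −0.078 to 0.081 in Control samples. Erythroid markers (5 of 7 measured) ran from −0.058 to 0.31 in Z/Edn2 samples, against −0.086 to 0.10 in Control samples, and those of retinal pigment epithelium (5 of 5) from −0.40 to 0.40 in Z/Edn2 samples, against −0.22 to 0.27 in Control samples. Fibroblast markers (4 of 4) ran from −0.0052 to 0.46 in Z/Edn2 samples, against −0.18 to 0.15 in Control samples. Astrocyte markers (4 of 5) were at 0.42 to 0.47 in Z/Edn2 samples, against −0.059 to 0.14 in Control samples, without overlap. Of their 10 probe sets, 5 were higher at an unadjusted p under 0.05, against 2.8% of all probe sets, with 0 adjusted calls. Their part in the identity genes' values was not tested. Markers of the retina itself (4 of 6 measured) ran from −0.30 to 0.052 in Z/Edn2 samples, against −0.22 to 0.37 in Control samples. Their log2 fold changes were negative for 6 probe sets and positive for 0, with a median of −0.10 and 0 at an unadjusted p under 0.05.

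Most identity genes were dim on these arrays. A filter that kept probe sets with a mean of at least 6.17, the median over all probe sets, left 16 of the 62 probe sets and 10 of the 34 genes, and removed Pecam1, Cdh5, Emcn, Erg, Fli1, Adgrf5, Clec14a and Icam1. It kept Cd93, Esam, Robo4, Egfl7, Podxl, Ets1, S1pr1, Nos3, Arhgef15 and Sox18. Of the 16 kept, 14 were negative, 1 of them (Sox18) at an unadjusted p under 0.05, and 0 passed. No detection calls were used here, so no probe set was taken as absent.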

How the data were processed

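Biotin-labelled RNA of 8 P8 retina pools was measured on Affymetrix arrays. The authors' deposited values are on the log2 scale, 1 per probe set. RMA is the only tool in the submitters' processing notes, and its version is not given in the sources used here. The values were used as deposited. The 64 control probe sets of the array were left out, and the other 45037 were fitted in limma 3.58.1 (lmFit and eBayes, two-sided, R 4.3.3), Z/Edn2 against Control with 4 samples each, with Benjamini-Hochberg adjustment over all of them and a threshold of 0.05. Values given with ± are log2 fold changes with limma's SE, unless marked SD. List means are those of the highest-mean probe set of each gene, as deviations from the mean of the 4 Control samples. The fit was tested on simulated data. The number of arrays limits the precision. No slide or scan information was used.

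Entrez identifiers placed all 62 probe sets in RefSeq's gene table of GRCm38.p6, and 0 symbols changed. Coordinates are those of RefSeq's promoter table, since no build is named for the arrays. Members and lists were chosen with earlier results of these data known. All members are named. The 8 values are given for genes with an unadjusted p under 0.05 or groups that do not overlap, for Pecam1, Cdh5, Erg and Emcn, and, chosen after their values were seen, for Cd93, Gja4 and Vwf. From the other lists up to 3 genes with the smallest p could be named.

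After removal of the group means, same-numbered samples correlated at 0.784, 0.401, 0.166 and 0.307 across probe sets, each above 0.1, so the replicate number was also fitted as a block. Z/Edn2 4 correlated more with Control 3 (0.347) than with Control 4, so the pairing is not clear in every replicate.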

Additional observations from a re-analysis of the deposited data

Results flagged for a closer look

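Within a group of 4, a sample was marked where its gap to the nearest other sample exceeded, as a share of the group's range, Dixon's 95% critical value. Of 124 groups 9 were marked, where chance marks about 5%.

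In Z/Edn2 retinas, Z/Edn2 2 was low for a Cd93 probe set, at 5.52 against 6.98 to 7.25 in the other 3, and for an Ets1 probe set, at 5.02 against 5.51 to 5.60. Z/Edn2 3 was high for the brighter Sox7 probe set, at 5.61 against 4.75 to 4.87, and for a dim Arhgef15 probe set, at 3.70 against 3.35 to 3.39. In Control retinas, Control 1 was low for Cdh5, at 5.31 against 5.82 to 5.90, and for the brightest Cd93 probe set, at 7.65 against 8.14 to 8.22. Control 2 was low for Pecam1, at 5.09 against 5.38 to 5.39, and high for Tal1, at 4.57 against 4.43 to 4.44. Control 4 was low for Icam1, at 3.80 against 4.07 to 4.10.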

How the results depend on the processing

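The numbers of adjusted calls, 0 lower and 0 higher, did not change in any setting except the replicate block, which gave 1 lower call (Fli1, log2 fold change −0.74) and 1 higher probe set at an unadjusted p under 0.05 (Procr). The median of the 62 log2 fold changes stayed negative, between −0.19 (Z/Edn2 1, Z/Edn2 3 and Control 1 left out) and −0.016 (without replicate 2). The count of lower probe sets at an unadjusted p under 0.05 was 10 with array medians subtracted, 13 with array weights and 8 with the replicate block. It was 1 of 16 with dim probe sets left out, 20 without the 3 samples named above, and 3 to 14 when 1 sample or pair was left out. The higher count was then 0 to 1. With dim probe sets left out 10 of 10 genes were negative. Over 36 probe sets and all alternatives, 644 of 690 values kept their sign and their side of the threshold, 45 turned and 1 gained a call.

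Turned signs all belonged to uncalled values. With Z/Edn2 1, Z/Edn2 3 and Control 1 left out the log2 fold change was −0.24 for Pecam1, −0.0077 for Gja5, −0.30 for Vwf, −0.11 for Cyyr1 and 0.018 for Podxl. With array weights it was −0.068 for Pecam1, −0.020 for Cyyr1 and 0.025 for Podxl. Myct1 was at −0.0087 with array medians subtracted and at −0.051 as the mean of its probe sets. Over omissions of 1 sample or pair the ranges were −0.081 to 0.27 for Pecam1, −0.46 to 0.14 for Cdh5, −0.13 to 0.50 for Vwf, −0.038 to 0.35 for Sox7, −0.071 to 0.24 for Cyyr1 and −0.089 to 0.065 for Podxl. They were −0.15 to 0.078 for Rasip1, −0.15 to 0.040 for Arhgef15, −0.12 to 0.051 for Thbd, −0.21 to 0.039 for Nos3, −0.12 to 0.0091 for Egfl7 and −0.021 to 0.071 for Myct1. The cause was not tested.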
